A study of Mus musculus with 2 samples.

Results

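The 53 G2 and mitosis genes described here encode the proteins that carry a cell from the end of DNA replication through chromosome segregation and cytokinesis. They were chosen by name from known G2 and M phase genes by a rule that uses no measured value, and their rows were read from the count tables of male mouse germ cells at the embryonic stages E12.5 and E13.5. All 53 were among the 15366 genes listed in both tables, and 52 reached a mean of 10 CPM (UMIs of the gene per 1e6 UMIs of all germ-like cells of a library) over both libraries, a minimum shared by 6895 genes. Psrc1, a microtubule-binding spindle protein, did not, with 116 UMIs in the E12.5 library and 59 in the E13.5 library. The questions were how each gene's level differed between the stages, and whether a difference lay in the share of cells rich in G2/M transcripts or in the level per such cell.

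The cells were male germ cells of the fetal gonad of CD1 mice, an outbred strain, sorted by FACS for Oct4-GFP, a fluorescent reporter of the germ cell gene Pou5f1. No treatment or induced mutation is named in the labels, and both groups carry the reporter, so only developmental stage separates them by label. Each stage is 1 library of 10x v2 chemistry, a droplet assay that counts transcript 3' ends by unique molecular identifier (UMI). No stage was replicated, so nothing was tested, a difference of stage cannot be told apart from one of library, and intervals cover counting error only.

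Cyclin B and CDK1 form the kinase that drives entry into mitosis, and CDC25 phosphatases remove the inhibitory phosphates that hold it in check. Aurora and Polo-like kinases then build the spindle, the spindle checkpoint delays anaphase until kinetochores are attached, and the anaphase-promoting complex with CDC20 marks cyclin B and securin for destruction. Most of these genes are transcribed in G2 and M, from promoters that often carry a CHR element (cell cycle genes homology region), the site of DREAM, MuvB-B-MYB and FOXM1 complexes, together with CCAAT boxes bound by NF-Y. Male germ cells divide after they reach the gonad and then withdraw from the cell cycle in the fetal testis, without entering meiosis.

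Promoter letters played no part in choosing the members, and most but not all of their promoters hold CHR or CCAAT letters. RefSeq promoters (build GRCm38.p6, 250 bases before to 50 bases after the start) were given for 47 of the 53 genes, as 52 promoters of 300 bases. The CHR letters searched were TTTGAA and TTCGAA on both strands, and the CCAAT box was searched as CCAAT on both strands; a CHR and a CCAAT match can share 1 base. A CHR match was present in 38 of the 52 promoters (73.1%), against 19.2% of the 32851 promoters in the table. CCAAT letters were present in 39 (75%) against 37.4%, and both in 31 (59.6%) against 7.52%. A match is a description of letters and not a bound site. For 7 members that the results below return to, the 150 bases before the RefSeq start are printed 5' to 3' on the gene's strand, with CHR and CCAAT matches in capitals.
Cdk1 (chr10:69352913-69353062, minus strand): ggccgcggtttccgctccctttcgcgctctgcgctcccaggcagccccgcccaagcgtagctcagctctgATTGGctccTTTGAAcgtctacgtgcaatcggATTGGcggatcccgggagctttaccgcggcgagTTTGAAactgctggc
Plk1 (chr7:122159285-122159434, plus strand): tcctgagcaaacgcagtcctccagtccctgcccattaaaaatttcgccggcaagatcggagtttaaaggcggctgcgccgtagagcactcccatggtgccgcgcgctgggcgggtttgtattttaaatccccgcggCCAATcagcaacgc
Cdc20 (chr4:118437344-118437493, minus strand): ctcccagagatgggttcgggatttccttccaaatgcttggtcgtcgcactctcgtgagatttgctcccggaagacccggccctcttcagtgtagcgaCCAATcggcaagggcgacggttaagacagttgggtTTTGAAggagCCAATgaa
Cenpf (chr1:189688087-189688236, minus strand): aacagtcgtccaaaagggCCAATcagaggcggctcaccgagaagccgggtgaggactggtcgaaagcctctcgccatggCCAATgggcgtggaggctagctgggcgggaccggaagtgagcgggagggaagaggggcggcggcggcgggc
Hmmr (chr11:40733438-40733587, minus strand): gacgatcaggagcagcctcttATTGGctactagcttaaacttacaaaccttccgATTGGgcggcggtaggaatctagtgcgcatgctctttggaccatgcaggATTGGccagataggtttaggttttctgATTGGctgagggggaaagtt
Top2a (chr11:99024190-99024339, minus strand): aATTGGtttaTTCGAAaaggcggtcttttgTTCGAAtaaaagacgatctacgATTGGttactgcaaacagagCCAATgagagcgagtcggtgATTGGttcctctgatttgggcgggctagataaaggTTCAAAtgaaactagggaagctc
Mki67 (chr7:135716380-135716529, minus strand): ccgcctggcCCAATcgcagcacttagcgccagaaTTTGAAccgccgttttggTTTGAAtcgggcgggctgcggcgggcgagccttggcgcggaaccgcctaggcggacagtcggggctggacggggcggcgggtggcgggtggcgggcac
Cdk1 and Top2a hold several CHR and CCAAT matches side by side. Cdc20 has a CHR match 18 bases before the start, between CCAAT matches at 53 and 8 bases. The Mki67 window has 2 CHR matches and 1 CCAAT match, while those of Plk1, Cenpf and Hmmr hold CCAAT letters alone in these 150 bases. These last 3 have a CHR match just after the start (at base 30 for Plk1, 2 for Cenpf and 8 for Hmmr), within the 300 bases counted above. Birc5, G2e3, Nuf2, Nusap1 and Tacc3 have neither match. Genes with matching letters differed in their stage ratio: Mki67 was lower in the E13.5 library and Cdc20 was close to level.

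Germ-like cells, named from clusters and 12 germ cell markers, made up 2529 of 2621 kept barcodes at E12.5 and 2611 of 2670 at E13.5. Their median depth was 23415 and 21641 UMIs per cell and their median mitochondrial share 3.86% and 4.69%. All 12 germ markers were above 0 in both libraries, with a summed level of 7207 and 8272 CPM. Sertoli markers summed to 12.4 and 13.51 CPM. Endothelial markers summed to 96.9 and 36.9 CPM, mostly from Pecam1, and erythroid markers to 0.284 and 23.2 CPM; the part of these in the results was not tested. The 2 tables share 24 barcodes, 9 of them germ-like, and leaving these out left the counts and the median given next at 6, 1 and -0.21.

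Summed over germ-like cells, most G2 and mitosis genes were slightly lower in the E13.5 library. In each pair of values the E12.5 library comes first. Of 52 members, 40 had a ratio under 1 and 12 above it, and the counting interval lay below 1 for 36, above 1 for 9 and across 1 for 7. The matching shares over all genes are not given here, so these counts describe the members alone. The median log2 ratio of the 52 members (E13.5 over E12.5) came to -0.21, beside -0.021 over all 6895 genes. A difference of at least 1.5-fold was found for 6 members that were lower (Mki67, Cdca3, Cenpa, Plk1, Ccnf and Ncapd2), where 8.61% of all genes were that much lower. G2e3 alone was at least 1.5-fold higher, where 7.16% of all genes were. The count of lower members was thus near the share over all genes. The remaining 45 lay within 1.5-fold, and the summed level of the 53 genes was 9006 and 8053 CPM in the E12.5 and E13.5 libraries.

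**Figure D1:**
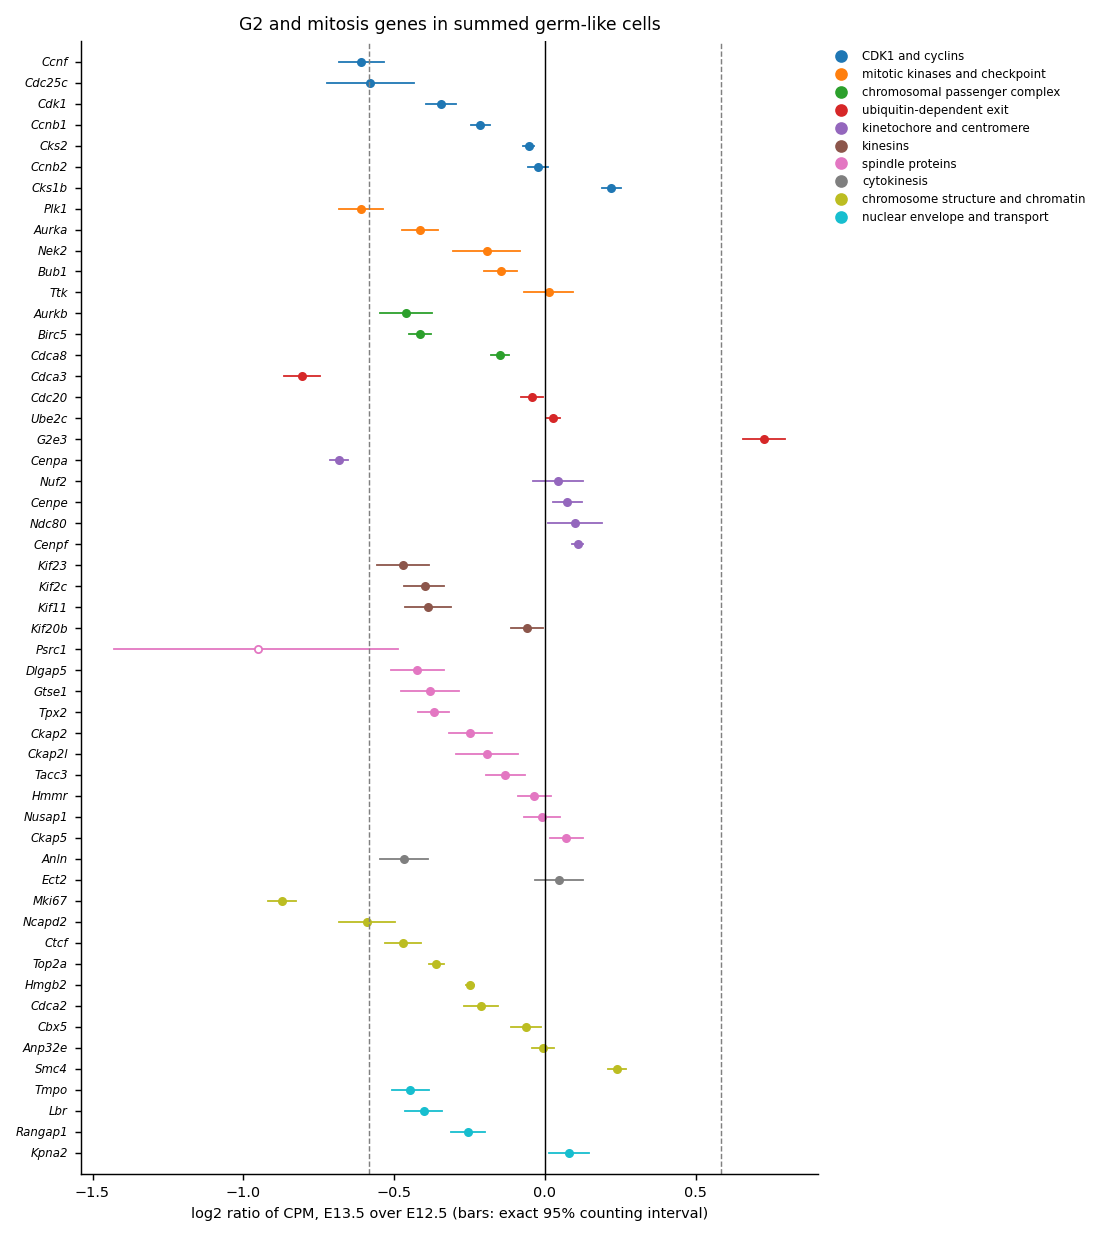
Log2 ratio of CPM in summed germ-like cells, E13.5 over E12.5, for the 53 genes, coloured by role; bars are exact 95% counting intervals, dashed lines mark 1.5-fold and the open point is Psrc1, under 10 CPM. Mki67 and Cdca3 lie farthest to the left among the filled points and G2e3 farthest to the right.

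Among CDK1, the cyclins and their partners, 6 of 7 genes were lower in the E13.5 library. With a total without abundant genes 5 were, as Ccnb2 passed above 1. Under the stricter cell filter both Ccnb2 and Cks2 passed above 1. Cdk1, the mitotic kinase itself, was at 123 and 96.7 CPM in the E12.5 and E13.5 libraries, 1.27-fold lower (95% interval 1.23 to 1.31). Its main activating cyclin, Ccnb1, was at 306 and 264 CPM, 1.16-fold lower (1.14 to 1.18). Ccnb2, the second B-type cyclin, was at 240 and 236 CPM, with an interval that spans 1. The largest difference in the group was in Ccnf, the substrate receptor of an SCF ubiquitin ligase, at 63.2 and 41.5 CPM and 1.52-fold lower (1.45 to 1.60). Cdc25c, a phosphatase that activates CDK1, was at 16.8 and 11.2 CPM. Of the small CDK-binding subunits, only Cks1b stood apart from this. Cks1b was at 239 and 279 CPM, 1.17-fold higher (1.14 to 1.19), and Cks2 was at 748 and 720 CPM, 1.04-fold lower (1.03 to 1.05).

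Of the mitotic kinases and checkpoint genes, Plk1 differed most. Plk1, which promotes mitotic entry and spindle assembly, was at 65.2 and 42.8 CPM in the respective libraries, 1.52-fold lower (1.45 to 1.60). Aurka, the centrosomal Aurora kinase, was at 86.9 and 65.2 CPM. Bub1, a checkpoint kinase at the kinetochore, was at 92.8 and 83.8 CPM, 1.11-fold lower (1.07 to 1.15). Ttk, the kinase also called MPS1 that starts checkpoint signalling, was at 40.5 and 40.9 CPM, a ratio of 1.01 (0.953 to 1.07). All 3 genes of the chromosomal passenger complex were lower. Aurkb, its kinase, was at 44.9 and 32.6 CPM, 1.38-fold lower (1.30 to 1.46), and Cdca8 (borealin), which targets the complex to centromeres, was at 296 and 267 CPM, 1.11-fold lower (1.08 to 1.13). Birc5 (survivin), another subunit of the complex, lay between them. Nek2, a kinase that separates centrosomes, had a log2 ratio of -0.19.

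The genes of ubiquitin-dependent exit held the highest ratio of the 52, in G2e3, and in Cdca3 the lowest apart from that of Mki67. Cdc20, the activator of the anaphase-promoting complex, was at 213 and 207 CPM, and Ube2c, the ubiquitin-conjugating enzyme that works with it, was at 518 and 528 CPM, 1.02-fold higher (1.004 to 1.04). Cdca3, which supports degradation of the CDK1 inhibitor WEE1, was at 108 and 61.6 CPM, 1.75-fold lower (1.68 to 1.82). G2e3, a ubiquitin ligase named for its G2/M expression, was at 46.0 and 76.1 CPM, 1.66-fold higher (1.58 to 1.74). Within this group Cdc20 and Ube2c, which work together, were both close to level, while Cdca3 and G2e3 differed in opposite directions.

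Kinetochore genes were close to level apart from Cenpa. Cenpa, the histone H3 variant that marks centromeres, was at 380 and 237 CPM, 1.60-fold lower (1.57 to 1.64). Cenpf, a large kinetochore and nuclear matrix protein, was at 682 and 735 CPM, 1.08-fold higher (1.06 to 1.09). Ndc80 and Nuf2, subunits of the complex that grips microtubules, and Cenpe, a kinetochore motor, had ratios between 1.03 and 1.07.

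All 4 kinesins were lower, except that Kif20b passed above 1 under the stricter cell filter. Kif23, a motor of the central spindle, was at 43.6 and 31.5 CPM, 1.39-fold lower (1.30 to 1.47), and Kif20b, a motor of late cytokinesis, was at 98.3 and 94.3 CPM, 1.04-fold lower (1.005 to 1.08). Kif11, which pushes the spindle poles apart, and Kif2c, which depolymerises microtubules, lay between them. Among 9 measured spindle proteins the log2 ratio ran from -0.42 to 0.071, and none reached 1.5-fold. Tpx2, which activates Aurora A on spindle microtubules, was at 121 and 93.9 CPM, 1.29-fold lower (1.25 to 1.34). Dlgap5 (HURP), a spindle microtubule stabiliser, was at 41.7 and 31.1 CPM, 1.34-fold lower (1.26 to 1.43), and Ckap5 (chTOG), a microtubule polymerase, was at 85.0 and 89.3 CPM, 1.05-fold higher (1.01 to 1.09). The other 6, Nusap1, Tacc3, Ckap2, Ckap2l, Hmmr and Gtse1, which bind or bundle spindle microtubules, ranged from -0.38 to -0.011 on the log2 scale. In the cytokinesis pair, Anln (anillin), a scaffold of the contractile ring, was at 50.5 and 36.5 CPM, 1.38-fold lower (1.31 to 1.46). Ect2, the exchange factor that activates RhoA there, was at 43.0 and 44.4 CPM, with an interval across 1 (0.978 to 1.09).

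Of 9 genes of chromosome structure and chromatin, 8 were lower, or 7 with a total without abundant genes, where Anp32e passed above 1. Mki67, which coats mitotic chromosomes and is the standard marker of proliferating cells, had the lowest ratio of the 52 genes, at 180 and 98.3 CPM, 1.83-fold lower (1.77 to 1.89). Ncapd2, a condensin subunit, was at 40.8 and 27.1 CPM, 1.51-fold lower (1.41 to 1.60), on the edge of the size class. Top2a, the topoisomerase that untangles sister chromatids, was at 520 and 405 CPM, 1.28-fold lower (1.26 to 1.31). Hmgb2, a DNA-bending chromatin protein, was at 1468 and 1235 CPM, 1.19-fold lower (1.18 to 1.20). Smc4, the core condensin ATPase, went the other way, at 254 and 300 CPM and 1.18-fold higher (1.15 to 1.21), so that the 2 condensin members differed in direction. Cbx5 (HP1 alpha), the insulator protein Ctcf, the histone chaperone Anp32e and Cdca2, a phosphatase subunit that acts at mitotic exit, ranged from -0.47 to -0.007 on the log2 scale. In the nuclear envelope and transport group, Tmpo (lamina-associated polypeptide LAP2) was at 86.9 and 63.8 CPM, 1.36-fold lower (1.31 to 1.42), and Lbr, the lamin B receptor, at 87.5 and 66.2 CPM. Rangap1, the activator of the Ran GTPase, was at 94.1 and 79.0 CPM, 1.19-fold lower (1.15 to 1.24). Kpna2, an importin alpha, was at 59.6 and 63.0 CPM, 1.06-fold higher (1.01 to 1.11). The annotation names pseudogenes of Ccnb1, Ccnb2 and Kpna2, so counts of these 3 genes are uncertain where reads match both.

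The ratios of low size depended on the denominator and the cell filter. Scaling to a total without the 50 most abundant, ribosomal protein and mitochondrial genes took Ccnf, Plk1 and Ncapd2 out of the 1.5-fold class and gave Ccnb2, Nusap1, Hmmr and Anp32e ratios above 1. A stricter cell filter (2000 genes, under 5% mitochondrial UMIs) left 2 members at least 1.5-fold lower, Mki67 and Cdca3, and a median log2 ratio of -0.10, with those 4 genes and also Cks2, Cdc20 and Kif20b above 1. Weighting cells equally put Ttk, Ube2c and Ect2 under 1. The stricter filter kept 89.8% of the E12.5 germ-like cells and 61.2% of the E13.5 ones.

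To separate the share of cells from the level per cell, cells were thinned to 14000 UMIs each, which left 2342 cells at E12.5 and 2359 at E13.5 (187 and 252 were shallower). The 53 genes together gave a mean of 124 UMIs per cell at E12.5 and 109 UMIs at E13.5. Their distributions overlapped at the top and differed at the bottom. The 90th percentile was 169 and 176 UMIs, the median 121 and 104, and the 10th percentile 86 and 50. Cells with few G2/M transcripts were thus present in the E13.5 library at levels that few E12.5 cells had, while the 90th percentiles were close.

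**Figure D2:**
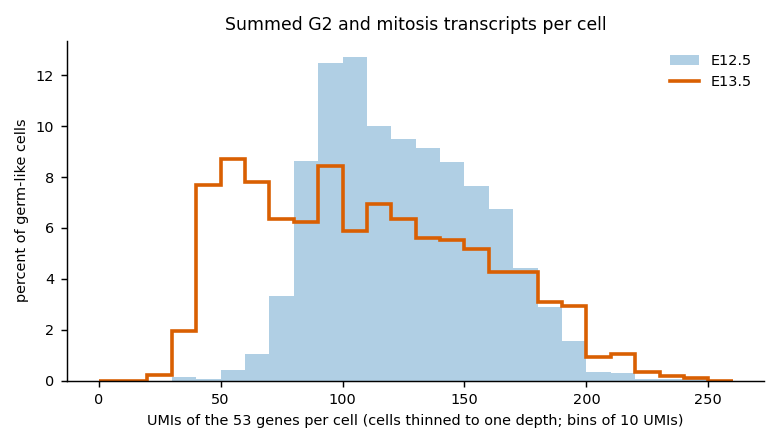
Percent of germ-like cells by the summed UMIs of the 53 genes per cell, after thinning to 14000 UMIs, in bins of 10 UMIs; the filled histogram is E12.5 and the line E13.5. The medians are 121 and 104 UMIs, and E13.5 has a broad group of cells under 80 UMIs, the 5th percentile of E12.5.

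Cells were then classed by 48 other G2/M genes that are not among the 53 (anchor genes), so that no member chose its own cells. A cut at 41 anchor UMIs, set by the distribution over both libraries, put 76.0% of E12.5 cells (exact binomial interval 74.2 to 77.7%) and 50.7% of E13.5 cells (48.6 to 52.7%) in the upper class. That class is a range of a score, too wide to hold mitotic cells alone, and 27.6% and 18.4% of cells lay within 5 UMIs of the cut. A cut 1.5 times higher, at 62 anchor UMIs, put 24.2% (22.4 to 26.0%, 566 cells) and 17.2% (15.7 to 18.8%, 406 cells) in it, with 18.3% and 11.4% of cells within 5 UMIs. Both cuts gave a lower share at E13.5; the Oct4-GFP gate and the cell filter can set such shares. With a cut set in each library alone the order turned, to 50.8% at E12.5 and 55.9% at E13.5.

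The level of the members inside the upper class was close between the libraries. As 1 anchor cut served both libraries, the mean anchor sum in the class was nearly fixed, at 70.8 and 71.8 UMIs at the cut of 62. Members that vary with the anchors are held close by this cut, so the closeness is no independent measure of level per cell. With a cut set in each library alone the inside median log2 ratio was -0.14. At 62 or more anchor UMIs the median log2 ratio over 52 members was 0.034, beside -0.025 over all genes, with 29 above 0 and 23 below. None was at least 1.5-fold lower, where 8.59% of all genes were, and 1 was at least 1.5-fold higher, where 6.27% were. That gene was Smc4, with 4.34 UMIs per cell at E12.5 and 6.95 at E13.5, 1.60-fold higher (1.52 to 1.69). Kpna2 was at 1.27 and 1.72 UMIs per cell in these cells, 1.35-fold higher (1.22 to 1.502), Hmmr at 2.22 and 2.70 (1.22-fold, 1.12 to 1.32), Ube2c at 10.3 and 12.9 (1.26-fold, 1.21 to 1.31) and Cdc20 at 4.99 and 5.88 (1.18-fold, 1.12 to 1.25). The counting interval lay above 1 for 19 members and below 1 for 12, with no matching share over all genes given here. At the cut of 41 the inside median was 0.041, with 0 members lower (7.47% of all genes) and 1 higher (5.89% of all genes). That 1 was G2e3, at 1.54-fold (1.42 to 1.67), while Smc4 was 1.44-fold higher there (1.39 to 1.49).

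Cells under the cut held lower mean levels at E13.5, but they were not matched for anchor score. Their mean anchor sum was 45.4 and 37.0 UMIs under 62, and 35.1 and 28.0 UMIs under 41. Under 62 anchor UMIs the median log2 ratio of the members was -0.29, beside -0.020 over all genes. There, 10 of 52 members were at least 1.5-fold lower, where 9.75% of all genes were, and G2e3 alone was at least 1.5-fold higher, where 8.25% were. Under 41 anchor UMIs the median was -0.36, with 22 members lower (12.6% of all genes) and 1 higher (11.1% of all genes). Plk1 illustrates the contrast. In cells at or over 62 it was at 1.54 UMIs per cell at E12.5 and 1.53 at E13.5, a ratio of 0.993 (0.895 to 1.10), and under 62 it was at 0.644 and 0.348, 1.85-fold lower (1.68 to 2.04). Top2a was at 8.53 and 9.63 UMIs inside and 6.58 and 4.36 outside, 1.51-fold lower there (1.47 to 1.55). Hmgb2 had 21.6 and 25.2 UMIs inside and 19.9 and 14.8 outside, so that it was higher in 1 set of cells and lower in the other. Kif23 and Aurkb had the form seen in Plk1, close to level inside and 1.64-fold (1.47 to 1.83) and 1.53-fold (1.39 to 1.70) lower outside.

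Of the 42 members with a ratio under 1 outside, 23 were also under 1 inside and 19 over 1. For 12 the counting interval lay under 1 in both kinds of cell: Mki67, Cdca3, Cenpa, Cdc25c, Ccnf, Ncapd2, Ctcf, Anln, Dlgap5, Ckap2, Gtse1 and Tmpo. The shares of all genes with these patterns are not given here, so the counts describe the members alone. Mki67 was at 3.12 and 2.30 UMIs per cell inside, 1.36-fold lower (1.25 to 1.47), and at 2.28 and 1.09 outside, 2.09-fold lower (1.99 to 2.21). Cdca3 was 1.46-fold lower inside (1.31 to 1.64) and 1.80-fold lower outside (1.69 to 1.92). For Cenpa these values were 1.26-fold (1.19 to 1.32) and 1.76-fold (1.70 to 1.82). Cdc25c was at 0.343 and 0.236 UMIs per cell inside, 1.45-fold lower with a wide interval (1.13 to 1.87). G2e3 was 1 of 10 members with a ratio over 1 in both, at 0.813 and 1.19 UMIs inside (1.46-fold, 1.28 to 1.66) and 0.569 and 1.01 outside (1.78-fold, 1.65 to 1.92). Cks1b and Cenpf were others, higher by 1.17-fold and 1.11-fold inside.

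**Figure D3:**
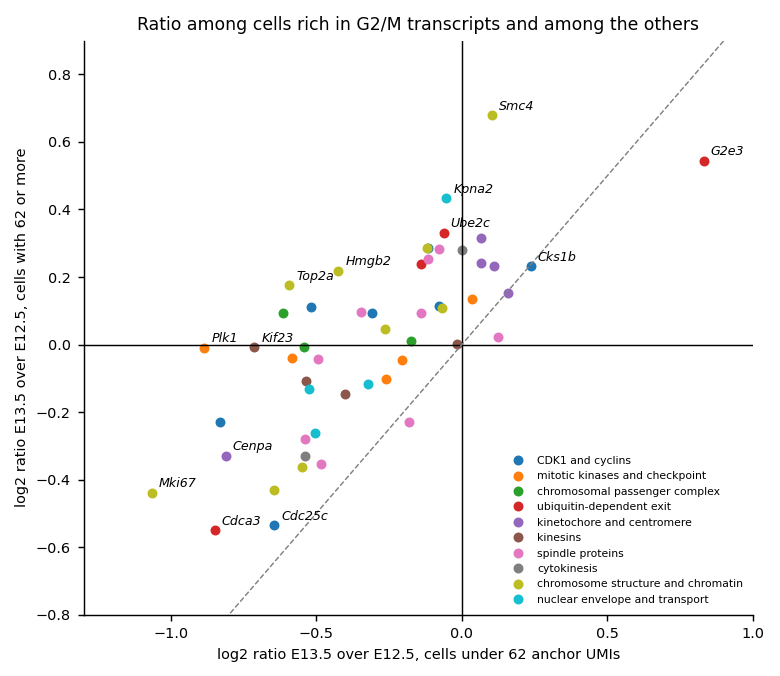
Log2 ratio of mean thinned UMIs per cell, E13.5 over E12.5, for 52 genes among cells with 62 or more anchor UMIs (vertical axis) against cells under 62 (horizontal axis); colours mark roles and the dashed line equal ratios. Most points lie above the dashed line, with a median of 0.034 on the vertical axis and -0.29 on the horizontal axis.

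The difference in the mean, -15.5 member UMIs per cell, was divided into a part from the share of cells in the class and parts from the level inside and outside it. At the cut of 41 the share gave -13.8 UMIs (88.7%), the level inside 6.87 and the level outside -8.63. With the cut at 62 the share gave -4.34 UMIs (27.9%), the level inside 2.93 and the level outside -14.1. The division therefore depends on where the line is drawn. Over all definitions tried the percent from the share ran from -18.5% to 136%, and no single figure is given for it. The level inside gave a positive part at both cuts, since member UMIs per cell at or over 62 were 160 at E12.5 and 174 at E13.5. Chromosome structure and chromatin genes held -7.04 UMIs of the whole difference. At the cut of 62, -4.03 UMIs of the outside part came from Hmgb2, -1.76 from Top2a and -0.946 from Mki67, and Cenpa added -1.67. The outside part compares means over all cells under 62, so it also holds differences in the mix of those cells.

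The wide range of the outside class was examined by bins of anchor UMIs, which match cells of the same anchor score. The bins do not match cells for S phase. Cells under 41 anchor UMIs held a mean of 87.7 UMIs of 43 S phase genes at E12.5 and 45.7 at E13.5. In the bin of 20 to 29 anchor UMIs (66 cells at E12.5, 516 at E13.5) Hmgb2 was at 17.5 and 8.04 UMIs per cell and Top2a at 5.73 and 1.75. At 40 to 49 they were nearly level, with Hmgb2 at 19.6 and 19.7 and Top2a at 6.40 and 5.91. At 70 or more (270 and 212 cells) E13.5 cells had more, at 21.9 and 26.2 for Hmgb2 and 9.02 and 9.80 for Top2a. Mki67 was lower at E13.5 in every one of the bins that held 20 or more cells in both libraries, from 1.29 and 0.426 in the bin of 20 to 29 to 3.46 and 2.29 at 70 or more. G2e3 was higher in each of these bins. Smc4 was alike at 30 to 39 (2.65 and 2.66) and 4.84 and 7.82 at 70 or more. Under 20 anchor UMIs there were 2 E12.5 cells and 144 E13.5 cells, and no comparison was made there.

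**Figure D4:**
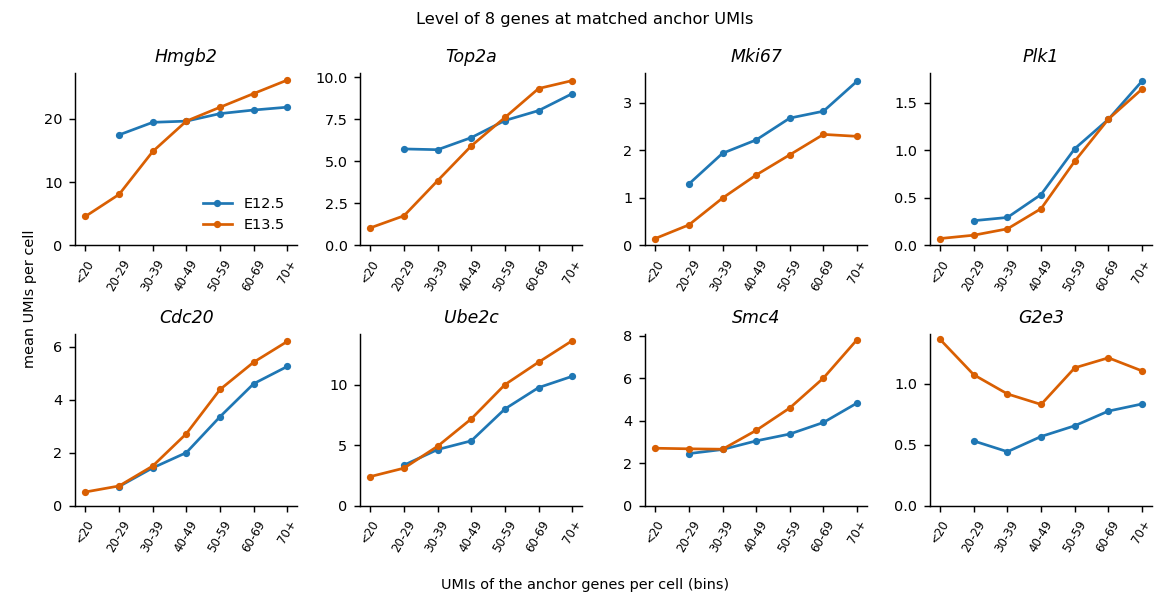
Mean thinned UMIs per cell of 8 genes by bin of anchor UMIs, E12.5 in blue and E13.5 in orange; bins with under 20 cells are not drawn. Mki67 is lower and G2e3 higher at E13.5 in all 6 shared bins, while the Hmgb2 lines meet near 40 to 49 anchor UMIs.

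Cells under 62 anchor UMIs were further split by 43 S phase genes, a split made after the values were seen. Those with 56 or more S UMIs (S-high) were 69.2% of cells at E12.5 and 30.4% at E13.5, and held 110 member UMIs per cell in both (110.5 and 109.8). Cells under both of these limits were 6.62% and 52.4%, with 141 and 87.1 member UMIs per cell. They were not alike between stages: their mean anchor sum was 50.8 UMIs at E12.5, over the cut of 41, and 33.2 at E13.5, so their levels are not compared as those of 1 kind of cell. The median log2 ratio of the members in S-high cells was -0.067, beside 0.006 over all genes. In cells under both limits the median depth was 25826 and 21000 UMIs and the median mitochondrial share 3.83% and 4.88%. In S-high cells these values were 23481 and 23084 UMIs and 3.87% and 4.45%. The part of depth and mitochondrial share in the level was not tested. The stricter cell filter kept 84.2% of E13.5 cells at or over 62 anchor UMIs, 71.8% of S-high cells and 55.1% of the remaining cells. In the upper class, the median depth before thinning was 25188 and 27504 UMIs, and Scrublet called 6 and 2 of its cells as doublets.

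**Figure D5:**
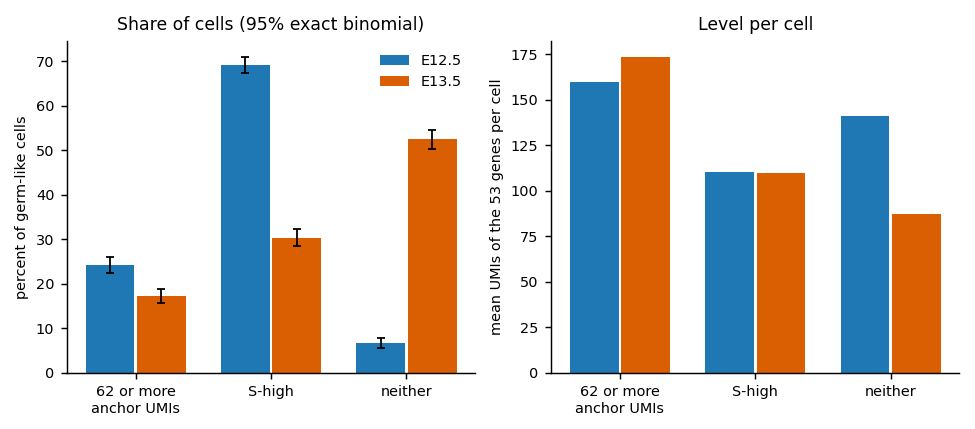
Left, percent of thinned germ-like cells with 62 or more anchor UMIs, of S-high cells and of neither, with exact 95% binomial intervals; right, mean UMIs of the 53 genes per cell. Cells of neither class are 6.62% at E12.5 and 52.4% at E13.5, and the S-high level is about 110 UMIs in both libraries.

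Other genes of the same pathways were set beside the members. Of 42 S phase genes with a mean of 10 CPM or more, 15 were lower by 1.5-fold or more and 0 higher (the shares of all genes are given above), with a median log2 ratio of -0.51. The lowest was Rrm2, a ribonucleotide reductase subunit, at 112 and 28.3 CPM, 3.96-fold lower (3.75 to 4.18). The highest was Uhrf1, which reads hemimethylated DNA, at 19.6 and 25.7 CPM, 1.31-fold higher (1.21 to 1.42). Of 17 genes of the anaphase-promoting complex and its partners, only the inhibitor Fbxo5 (EMI1) was at least 1.5-fold lower, at 98.8 and 54.3 CPM (1.82-fold, 1.74 to 1.90). Their median was 0.11, and the highest was the subunit Anapc4, at 50.6 and 63.3 CPM. Of 8 genes of mitotic entry, with a median log2 ratio of -0.51, 7 had a ratio under 1 and 2 were at least 1.5-fold lower: Wee1, the kinase that inhibits CDK1, at 37.7 and 18.1 CPM (2.08-fold, 1.94 to 2.24), and Gmnn, an inhibitor of replication licensing named here after its values were seen. Ensa, a phosphatase inhibitor, was the highest of that list, at 33.0 and 37.8 CPM.

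Transcriptional regulators of G2/M and E2F-dependent promoters had a median log2 ratio of -0.13. Of 16 measured regulators 2 were at least 1.5-fold lower and 0 higher. They were E2f8, an atypical E2F repressor, at 19.9 and 6.96 CPM (2.87-fold, 2.56 to 3.22), and E2f4, named after its values were seen. Rb1, the retinoblastoma protein, was the highest, at 16.8 and 22.4 CPM, 1.33-fold higher (1.23 to 1.45). The lists share genes: E2f8 is also counted among the S phase genes, and so is Gmnn of the mitotic entry list. Ccna2 and Cdc25b are in both the mitotic entry list and the anchor list, and of these only Ccna2 reached the minimum level. Of 42 measured anchor genes 5 were at least 1.5-fold lower and 1 higher, with a median of -0.22; besides Sgol2a these were Kifc1, Spc24, Fam64a and Ncapg2, named after their values were seen. Sgol2a, which protects centromeric cohesin, was at 146 and 88.7 CPM (1.64-fold lower, 1.59 to 1.70), and Kif18b, a microtubule-depolymerising kinesin, at 8.30 and 14.8 CPM (1.78-fold higher, 1.59 to 1.99).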

How the data were processed

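The authors deposited unnormalised UMI counts of genes by barcodes, as 1 table for each stage, from 10x v2 libraries (labels' protocols). Per the submitters' processing notes, Cell Ranger and mm10 (GRCm38) were used, with no version stated; which annotation served for counting is not known here. Every gene in a table occurs in 3 or more barcodes, and every barcode has 201 or more genes.

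Barcodes needed 500 genes and a mitochondrial share under 10%, and were clustered with scanpy 1.11.5 and leidenalg 0.10.2 (log-normalised to 10000 UMIs, 2000 variable genes, 30 components, 15 neighbours, resolution 0.5). Clusters were named from marker lists. Leading genes were computed without barcodes with 0.5% or more macrophage or erythroid UMIs, a rule set after the data were seen; 1 such E13.5 barcode was left out. An unnamed cluster of low UMI number (88 and 33 barcodes) and a Sertoli-like one (4 and 25) were left out. Scrublet calls (65 and 27, expected rate 0.06) were kept.

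Counts were summed over germ-like cells (59762537 and 58771934 UMIs) and given as CPM. Ratios have exact conditional binomial 95% intervals; a ratio needed 3 UMIs in each library. The anchor cut is Otsu's on log2(1 + anchor UMIs), with libraries weighted equally; 48 of 53 anchor symbols were in both tables. The mean difference was divided symmetrically into share and level. Free RNA's part in the scores was not tested. Members, lists and designs were chosen with earlier results of these data known. Values in full are given, in each role group, for the member with the highest mean, lowest and highest ratio, and for the ends of each other list; other members were named after their values were seen.

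Alternatives were TMM factors (edgeR 4.0.16), a total without abundant genes, other minimum levels, all barcodes, a stricter filter, Scrublet calls left out, cells weighted equally, other cuts, a class from the members with the described gene left out, thinning to 5000 UMIs, other weights and bins of anchor UMIs. On simulated counts of this depth, 94.9% of intervals of 6695 unchanged genes and 94% of those of 200 changed genes held the true ratio. The simulated counts held counting error alone, as the intervals assume. They check the calculation and not other variation in the data.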

Additional observations from a re-analysis of the deposited data

How the results depend on the processing

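With 1 library per stage, no alternative replaces a replicate. No paired analysis was possible because each group has 1 library. The number of members at least 1.5-fold lower in summed cells was 6. It came to 3 with a total without abundant, ribosomal protein and mitochondrial genes, and to 2 with the stricter cell filter, which also took the median log2 ratio from -0.21 to -0.10. TMM moved the log2 ratios by 0.002 and the total without abundant genes by 0.042; the other settings kept the count between 5 and 7.

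The upper class held 76.0% of cells at E12.5 and 50.7% at E13.5 at the cut of 41 anchor UMIs. These shares were 24.2% and 17.2% at the cut 1.5 times higher, 98.4% and 76.6% at the cut 1.5 times lower, 50.8% and 55.9% with a cut in each library alone (50 and 38 UMIs), and 71.3% and 56.7% with the stricter filter. The E12.5 share was 74.0% with a class from the members and 71.6% after thinning to 5000 UMIs. A class from the members with a cut 1.5 times higher, added after seeing the data, held 24.0% and 22.3%. The median log2 ratio inside was 0.041 and became -0.093 at the lower cut and -0.14 with a cut in each library alone, which also took the outside median from -0.36 to -0.67.

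The percent of the summed difference that falls to the share, 88.7% at the cut of 41, was least stable. It turned negative, at -18.5%, with a cut in each library alone. It was 27.9% at the higher cut, 7.62% for the class from members with the higher cut, 62.6% after thinning to 5000 UMIs, 136% with the stricter filter, 60.7% with E12.5 levels and 117% with E13.5 levels as weights, and 113% over bins of anchor UMIs. Beyond what each definition of the class fixes, the cause of these differences was not tested. Leaving out barcodes in both tables, also added after seeing the data, moved no value by as much. Members under about 1 UMI per thinned cell carry wide intervals, as Cdc25c does.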

Other observations

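The spread of these transcripts from cell to cell was wider in the E13.5 library. Over thinned cells, the variance of the summed member UMIs divided by the mean came to 8.28 and 20.3 in the E12.5 and E13.5 libraries, and it was higher at E13.5 for 44 of 52 members taken singly, beside 57.8% of all 6895 genes, often by little (Nuf2, 1.05 and 1.07). For Hmgb2 it was 1.36 and 4.94, and for Top2a 2.32 and 4.28. The rank correlation of Hmgb2 with anchor UMIs across cells was 0.19 in 2342 E12.5 cells and 0.74 in 2359 E13.5 cells; for Top2a it was 0.24 and 0.67, chosen here as large differences. The median over the members was 0.21 and 0.33, and the value was higher at E13.5 for 47 of 53 and lower for 6, among them G2e3 (0.15 and 0.012), Ckap5 (0.21 and 0.099), Cks1b (0.17 and 0.10) and Cenpe (0.47 and 0.44). The share of all genes with a higher correlation is not given here. The anchor sum itself also spread more at E13.5, with a variance over mean of 3.76 and 7.38, and its part in the correlations was not tested. Cells of a library share that library and, after thinning, 1 depth, so these are descriptions with no p.

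The members' level also differed among clusters, which were built from all variable genes. The E13.5 cluster led by Nanos2, an RNA-binding regulator of male germ cells, held 784 thinned cells, of which 0% reached 62 anchor UMIs, and 59.6 member UMIs per cell. The 2 clusters with the most such cells were 1 of E12.5 (606 cells, 63.5%) and 1 of E13.5 (439 cells, 65.8%), with 162 and 176 member UMIs per cell.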
